A study of Homo sapiens with 8 samples.

Results

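The IL-1, IL-6 and CXCL cytokine genes described here are 10 genes of inflammatory signalling, IL1A, IL1B, IL6, LIF, CXCL8, CXCL1, CXCL2, CXCL3, CCL2 and CSF2, taken from 19811 protein-coding genes. They were chosen by name, with earlier results of these data known. Every ChIP-Seq peak inside a gene or within 50 kb of it was assigned to that gene. Where windows of clustered genes overlapped (IL1A with IL1B, CXCL3 with CXCL2), a peak was counted once, which gave 8 loci and 947.357 kb of sequence on hg19. The peaks came from PC3, an established line grown from a prostate tumour that had spread to bone. Chromatin was precipitated with antibodies to DAXX, to DNMT1 and to histone H3 at lysine 4 (labelled DMHH3(Lys4), written H3(Lys4) here), in cells that stably express an shRNA against DAXX (K/D) and in control cells (WT). The control is called wild type in the labels and a control shRNA counterpart in the description of the series, and WT covers either reading. Each antibody has 1 list from K/D cells and 1 from WT cells, each called against the input chromatin of its own line. With 1 library per group there is no replicate error, no test between the lines was possible, and a peak that is missing from a list was not called, which does not show that the site was empty. The lists hold no measure of DAXX itself, so the knockdown was not checked here.

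Whole lists held 42894 K/D and 59778 WT DAXX peaks, 600 K/D and 2237 WT DNMT1 peaks, and 72215 K/D and 72100 WT H3(Lys4) regions. Per the file headers the libraries had between 12050101 and 18705056 tags, and the share of tags inside peaks was lower in K/D for DAXX (6.83% against 15.77% in WT), for DNMT1 (0.07% against 0.26%) and for H3(Lys4) (15.07% against 23.94%). The share was thus lower in K/D with every antibody, and its part in the differences between K/D and WT below was not tested. The deposited score was the same for all peaks, so the place of a peak in the deposited order, which HOMER writes from the strongest down, is the only measure of strength. It is given as a position and as a percent of the list, with low values for strong peaks. Some consecutive places also ran along a chromosome, such as K/D DAXX places 29238 to 29241 on chromosome 4. Such peaks may be equally strong, so small differences in place may not reflect strength.

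Interleukin-1 alpha and beta, the products of IL1A and IL1B, bind 1 receptor and start a cascade that ends on the transcription factors NF-kB and AP-1. These factors in turn switch on genes such as IL6, CXCL8, the GRO chemokines CXCL1, CXCL2 and CXCL3, CCL2 and CSF2, and in PC3 cells several of these cytokines are known to be secreted without added stimulus. IL-6 and LIF signal through the shared receptor chain gp130 to STAT3. DAXX is a chaperone of the histone variant H3.3 and a transcriptional co-repressor without a DNA-binding domain of its own, DNMT1 is the methyltransferase that copies DNA methylation after replication, and methylation of H3 lysine 4 is found at active promoters and enhancers.

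The sequences below are 7 WT DAXX peaks, 1 for each of 7 genes, from the named peaks that hold an AP-1 or NF-kB motif. They are examples of motif matches near a transcript start (IL6, LIF and CXCL2) or at distal sites. Not all stood early in the list, and the LIF peak was place 44123 (73.8%). Named peaks nearest to IL1A also held an AP-1 match and are not shown. The choice of 1 peak per gene was made after their values were seen. All are hg19, plus strand, with motif matches in capitals: AP-1 is TGACTCA or TGAGTCA, and the matches in IL1B, LIF and CXCL2 are to the NF-kB motif.
IL1B, chr2:113569567-113569739: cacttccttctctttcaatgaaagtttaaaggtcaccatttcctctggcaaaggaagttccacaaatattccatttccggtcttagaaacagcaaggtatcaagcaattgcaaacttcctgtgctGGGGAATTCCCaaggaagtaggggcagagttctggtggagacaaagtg
IL6, chr7:22766523-22766695: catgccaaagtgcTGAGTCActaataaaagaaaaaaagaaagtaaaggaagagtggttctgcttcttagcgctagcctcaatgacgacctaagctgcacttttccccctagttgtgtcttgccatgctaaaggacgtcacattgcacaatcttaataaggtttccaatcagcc
LIF, chr22:30641644-30641816: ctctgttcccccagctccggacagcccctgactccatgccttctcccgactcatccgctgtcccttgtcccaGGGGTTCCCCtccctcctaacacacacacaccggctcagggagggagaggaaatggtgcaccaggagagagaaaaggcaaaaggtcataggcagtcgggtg
CXCL8, chr4:74587759-74587931: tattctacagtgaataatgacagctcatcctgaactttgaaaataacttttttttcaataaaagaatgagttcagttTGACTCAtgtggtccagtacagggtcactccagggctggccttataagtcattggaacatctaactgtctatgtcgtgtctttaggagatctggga
CXCL1, chr4:74782945-74783117: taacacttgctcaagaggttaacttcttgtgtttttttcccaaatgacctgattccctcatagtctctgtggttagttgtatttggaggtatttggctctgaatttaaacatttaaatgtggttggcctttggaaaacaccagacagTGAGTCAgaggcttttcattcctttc
CXCL2, chr4:74964979-74965151: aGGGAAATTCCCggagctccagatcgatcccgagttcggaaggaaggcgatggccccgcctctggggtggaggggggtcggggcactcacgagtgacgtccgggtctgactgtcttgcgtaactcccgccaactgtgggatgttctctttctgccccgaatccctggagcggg
CSF2, chr5:131430478-131430650: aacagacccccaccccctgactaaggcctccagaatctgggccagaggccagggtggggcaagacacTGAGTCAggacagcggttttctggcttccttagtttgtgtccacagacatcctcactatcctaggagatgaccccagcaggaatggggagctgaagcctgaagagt
The IL6 and CXCL2 peaks lie in the promoters, with centres 210 bp and 153 bp before the main transcript start (the start of the transcript that Ensembl marks as canonical). In IL6 the AP-1 match began at position -283 from that start.

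DAXX peaks were dense at these genes in both lines. The 10 genes had 62 DAXX peaks in K/D and 80 in WT, which is 0.145% of the K/D list and 0.134% of the WT list. When the WT list was shortened in its own order to the length of the K/D list, the counts were 62 in K/D and 66 in WT. Of the 10 genes, 9 had a DAXX peak in K/D (81.4% of all protein-coding genes did) and 9 had one in WT (85.3% of all genes), so having a peak did not set them apart. Density was taken gene by gene, here and for all genes, so a peak in overlapping windows counts for each gene. IL1A had 9 peaks in K/D and 10 in WT and IL1B 11 and 14, while their joint window held 15 and 17. The density did differ from that of most genes. Its median over the 10 genes was 7.34 peaks per 100 kb in K/D, against 1.72 for all protein-coding genes, and 8.44 in WT, against 2.53. The 90th percentile of all genes was 4.59 in K/D and 6.38 in WT, and 6 of the 10 genes lay above it in K/D and 7 in WT. LIF stood highest with 13.2 in K/D and 14.1 in WT, and 0.0101% of all genes in K/D and 0.0505% in WT had a density at or above it. IL1B followed with 10.3 in K/D and 13.1 in WT. IL6 was lowest among the genes with a peak, at 1.88 in K/D and 4.71 in WT, close to the median of all genes in K/D. CCL2 had 0 peaks in all 6 lists. 9 of the 10 genes had fewer DAXX peaks in K/D than in WT and CCL2 had none in either, beside 59.7% of all genes with fewer in K/D.

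**Figure D1:**
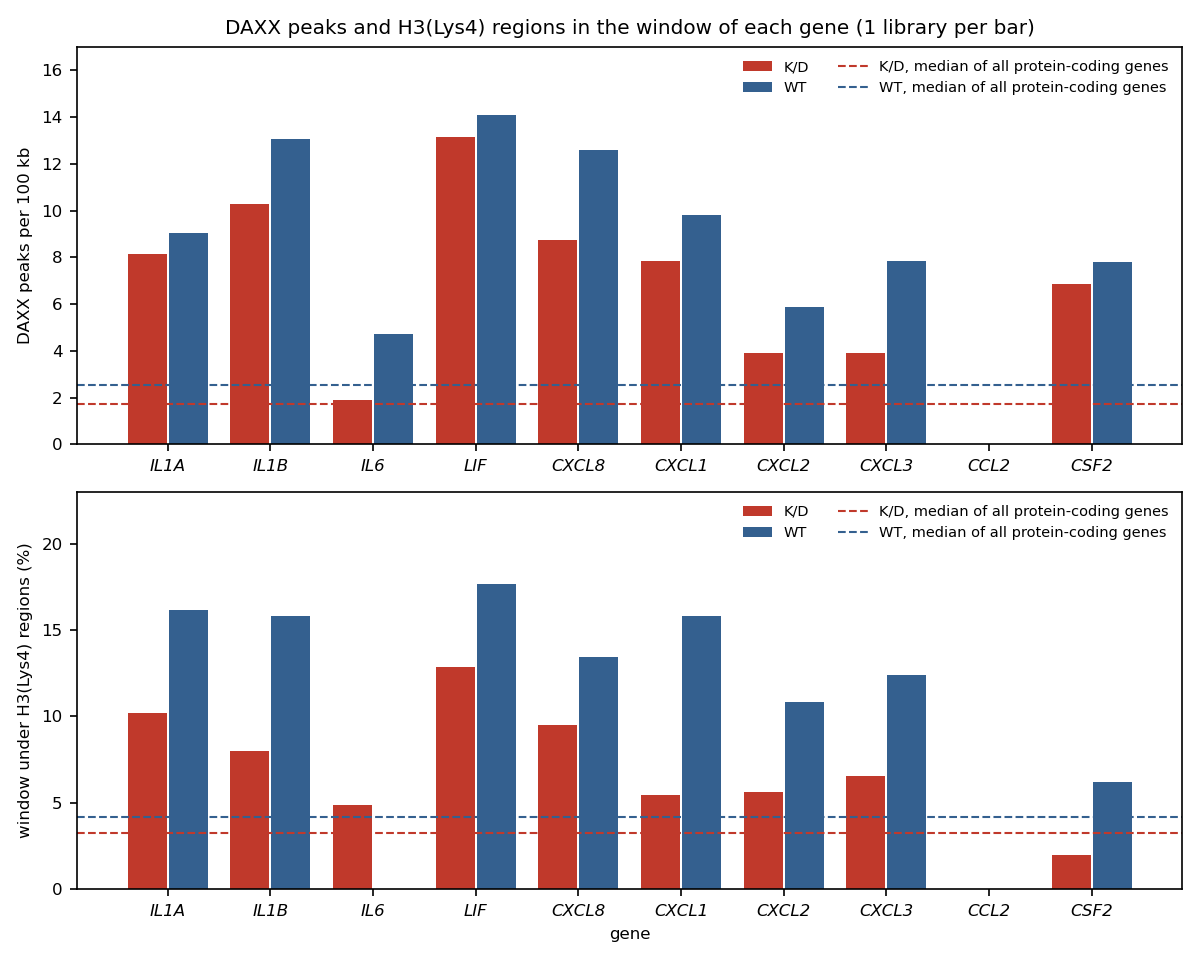
Each bar is 1 gene in 1 library, K/D left of WT. The upper panel shows DAXX peaks per 100 kb of the gene and 50 kb to either side, the lower panel the percent of that window under H3(Lys4) regions, and dashed lines give the medians of all protein-coding genes (1.72 in K/D and 2.53 in WT for DAXX, 3.22% in K/D and 4.16% in WT for H3(Lys4)). LIF has the tallest DAXX bars, IL6 has an H3(Lys4) bar in K/D only, and CCL2 has no bar.

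Most DAXX peaks in these windows lay outside protein-coding genes, where peaks just before a start were also counted. These were 50 of the 62 K/D peaks and 63 of the 80 WT peaks. Introns held 8 and exons 4 in K/D, and introns held 14 and exons 3 in WT. The genes are between 1916 bp (CXCL1, in a window of 101916 bp) and 10569 bp (IL1A, in 110569 bp) long. Most of each window thus lies outside its gene, and no share of the whole list was set beside these counts. Promoters were also occupied. A DAXX peak centre lay within 1 kb of an annotated transcript start of 6 of the 10 genes in K/D (19.2% of all genes) and of 7 in WT (25.6% of all genes). These were IL1B, IL6, LIF, CXCL8, CXCL2 and CSF2 in both lines and CXCL3 in WT. They held 7 peaks in K/D, of which 6 overlapped a WT peak, and 12 peaks in WT, of which 6 overlapped a K/D peak. Of all DAXX peaks within 1 kb of a protein-coding start, 60.8% were shared in K/D and 42.8% in WT.

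**Figure D2:**
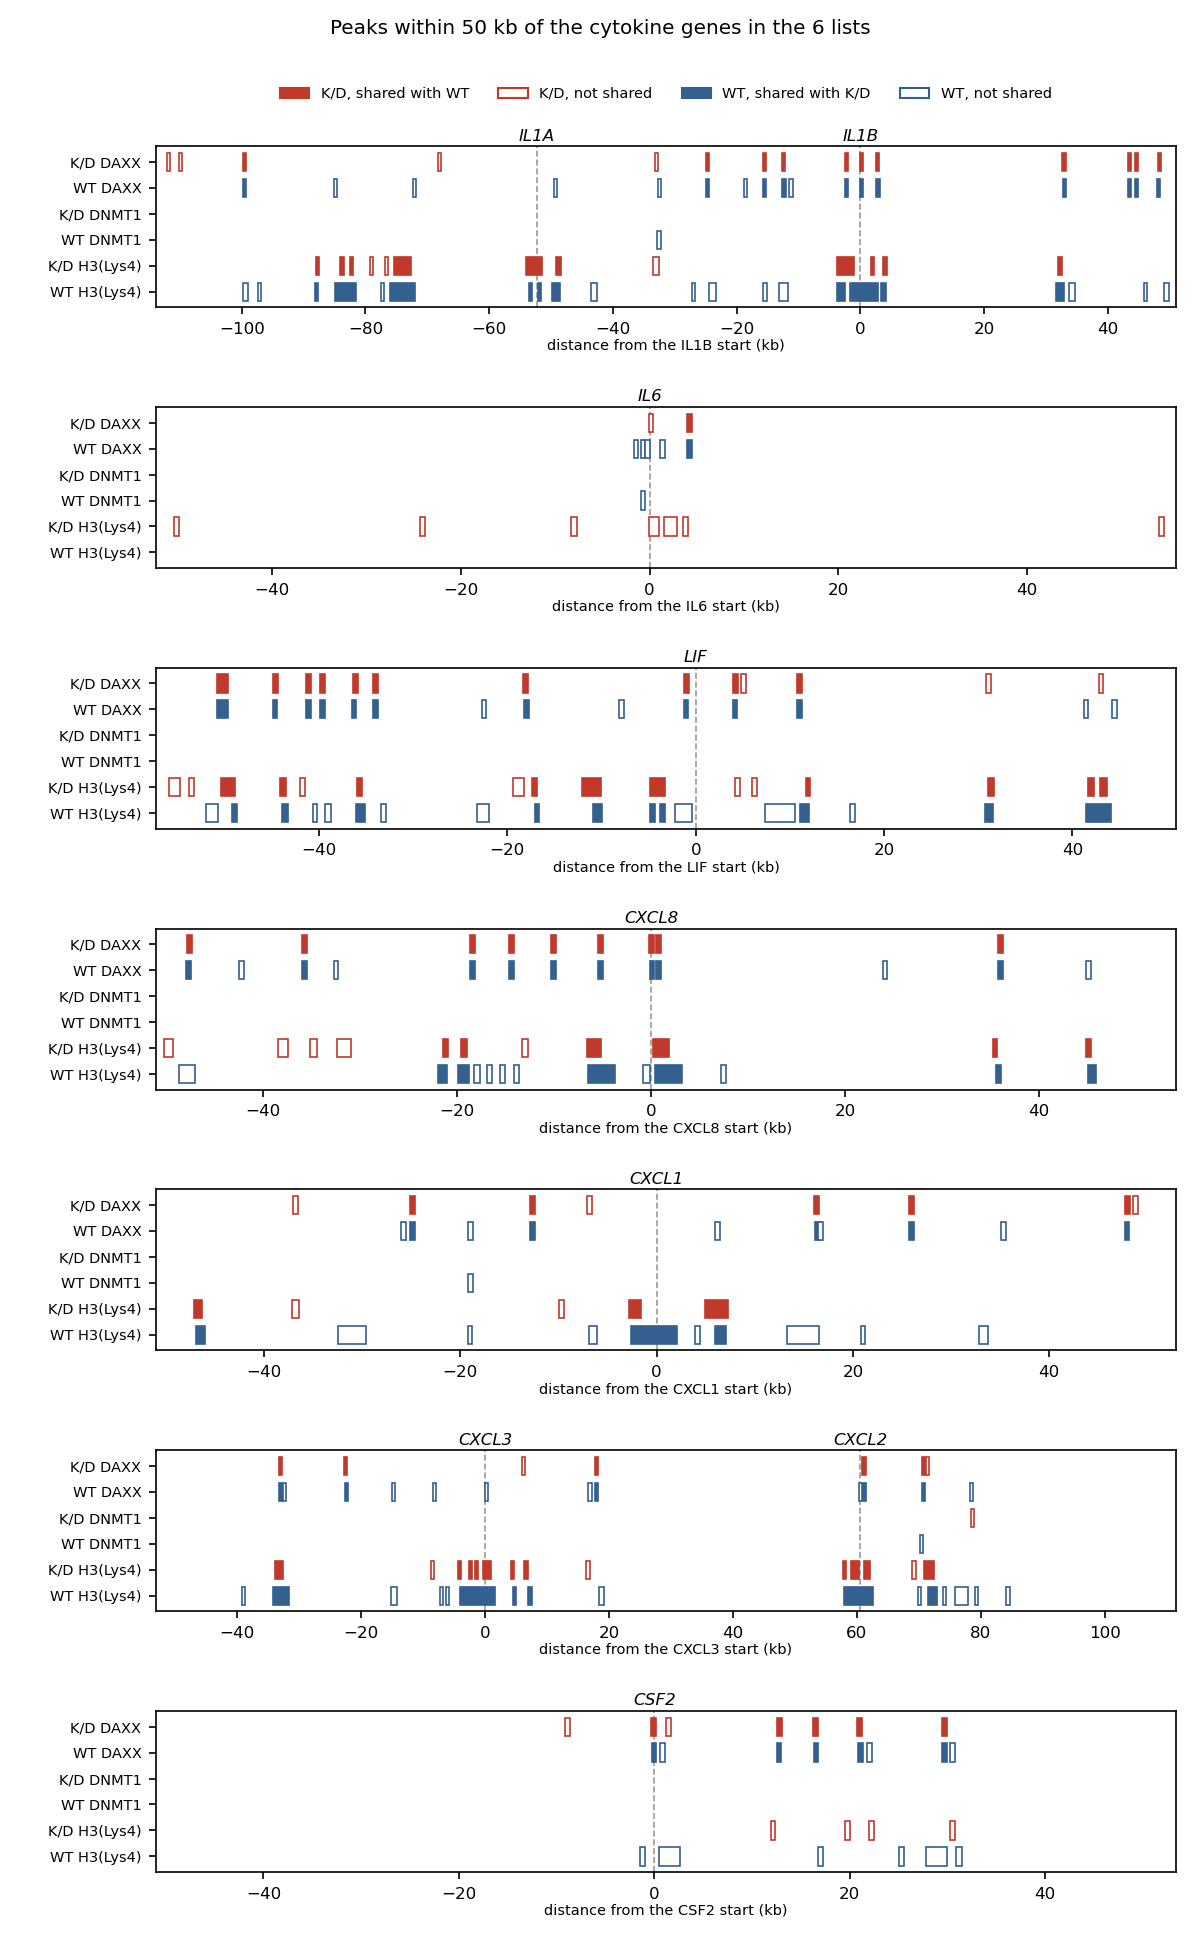
Each panel is 1 locus, with distance along the chromosome from a main transcript start in kb on the x axis, dashed lines at the starts, and a row for each list, K/D above WT. Filled boxes overlap a peak of the same antibody in the other line, open boxes do not, and boxes under 0.5 kb are drawn 0.5 kb wide. DAXX boxes mostly line up between the lines, the DNMT1 rows hold 1 box in K/D and 4 in WT, and the WT H3(Lys4) row is empty at IL6.

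IL1A and IL1B encode the secreted ligands of the interleukin-1 receptor and lie next to each other on chromosome 2, with starts 52.3 kb apart. IL1A is at chr2:113531502-113542070, minus strand, and IL1B at chr2:113587328-113594393, minus strand. Their joint window (chr2:113481502-113644393) held 15 DAXX peaks in K/D and 17 in WT, and 11 of them were shared. The strongest, in an exon of the neighbouring gene CKAP2L and 47.3 kb from the IL1A start, was place 297 (0.692%) in K/D and place 469 (0.785%) in WT. It was the strongest DAXX peak of all 8 loci in both lines. The peak 24.7 kb from the IL1B start, whose sequence with an NF-kB match is printed above, was place 3887 (9.06%) in K/D and place 4215 (7.05%) in WT. At the IL1B promoter the K/D peak had its centre 182 bp before the start at place 3888 (9.06%), and the WT peak 164 bp before it at place 2806 (4.69%). IL1A had no DAXX peak within 1 kb of its start in either line: the nearest centre was 15782 bp away in K/D and 2998 bp away in WT. Among unshared peaks, the strongest K/D one stood at place 19721 (46.0%) in an intron of NT5DC4 and the strongest WT one at place 40569 (67.9%), 264 bp from a weak K/D peak. The peaks that differed between the lines at the interleukin-1 genes were therefore in the middle and lower parts of the lists.

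IL6 encodes interleukin-6, the founding ligand of the gp130 family, and is at chr7:22765503-22771621, plus strand. Its DAXX peaks were few and all within 4255 bp of the gene's main start, unlike those of the other loci. K/D had 2 and WT had 5, with 1 shared. The shared peak lay in an exon, centred 4249 bp after the start in K/D and 4255 bp after it in WT, at place 11169 (26.0%) in K/D and place 12696 (21.2%) in WT. At the promoter no peak was shared. K/D had 1 peak there, centred 149 bp after the start in the gene's exon (chr7:22766883-22767053, place 24334, 56.7%). WT had 3 peaks within 1 kb of an annotated start, centred 210 bp (place 29321, 49.0%), 706 bp (place 22602, 37.8%) and 1433 bp (place 45335, 75.8%) before the main start. The WT peak at -210 ended 187 bp before the K/D peak began, so the promoter carried a called peak in both lines without any overlap. All of these promoter peaks stood between 37.8% and 75.8% of their lists. The fifth WT peak lay in an intron of IL6, 1387 bp after the start (place 28202, 47.2%), and was 1066 bp from the nearest K/D peak.

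LIF encodes leukaemia inhibitory factor, another gp130 ligand, at chr22:30636442-30642748, minus strand, and had the densest set of DAXX peaks. There were 14 in K/D and 15 in WT, and 11 were shared. The strongest lay 11.0 kb before the start and holds an AP-1 match, at place 2665 (6.21%) in K/D and place 2716 (4.54%) in WT. The OSM start was nearer to it, 8.02 kb away in K/D and 8.03 kb in WT. The next was 34.0 kb after the start, at place 3865 (9.01%) in K/D and place 4588 (7.68%) in WT. A group of 7 shared peaks lay between 34.0 kb and 50.6 kb after the start. Near the start, an intronic peak with an NF-kB match stood at place 26644 (62.1%) in K/D and place 44123 (73.8%) in WT. The strongest unshared peak was place 20694 in K/D and place 29902 in WT, near the middle of each list.

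The 4 CXC chemokine genes lie within 358.6 kb of each other on chromosome 4 and attract neutrophils through the receptors CXCR1 and CXCR2. Together they had 24 DAXX peaks in K/D and 35 in WT, and 19 were shared. CXCL8, which encodes interleukin-8 and is at chr4:74606236-74609433, plus strand, had 9 in K/D and 13 in WT, and all 9 K/D peaks overlapped a WT peak. Its strongest peak, 35.7 kb before the start, was place 3911 (9.12%) in K/D and place 3386 (5.66%) in WT. Over the first exon, the peak was place 5370 (12.5%) in K/D and place 4075 (6.82%) in WT, and a peak in the first kb of the gene was place 24073 (56.1%) in K/D and place 13011 (21.8%) in WT. The distal peak 18.4 kb before the start, printed above, was place 6308 (14.7%) in K/D and place 6965 (11.7%) in WT. The strongest CXCL8 peak of WT that K/D lacked was place 16102 (26.9%), 32.5 kb before the start.

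CXCL1, CXCL2 and CXCL3 encode the GRO chemokines, which act on CXCR2. They are at chr4:74735110-74737025, plus strand (CXCL1), chr4:74962757-74964913, minus strand (CXCL2) and chr4:74902306-74904524, minus strand (CXCL3). CXCL1 had 8 DAXX peaks in K/D and 10 in WT, with 5 shared, and none within 1 kb of its start in either line. Its strongest, 12.7 kb before the start, was place 671 (1.56%) in K/D and place 1042 (1.74%) in WT. The PF4V1 start was nearer to it, 3.41 kb away in K/D and 3.42 kb in WT. An AP-1 match lay within 100 bp of its centre but not inside the peak. The peak printed above, 47.9 kb after the start, was place 1797 (4.19%) in K/D and place 2466 (4.13%) in WT. Both thus stood within the first 4.19% of each list. CXCL3 and CXCL2, with starts 60.5 kb apart, had 7 peaks in K/D and 12 in WT, with 5 shared. The strongest lay 22.5 kb after the CXCL3 start in K/D (place 4462, 10.4%) and 22.3 kb after it in WT (place 3096, 5.18%). The CXCL5 start was nearer to it, 17.5 kb away in K/D and 17.7 kb in WT. At the CXCL3 promoter WT had a peak centred 188 bp before the start (place 23266, 38.9%), and the nearest K/D peak was 5864 bp away. At the CXCL2 promoter WT had a peak centred 153 bp before the start (place 37413, 62.6%), and the nearest K/D peak was 320 bp away. A second CXCL2 promoter peak was shared, at place 35937 (83.8%) in K/D and place 22463 (37.6%) in WT. The strongest unshared WT peak of the GRO genes was place 8978 (15.0%), 16.9 kb before the CXCL3 start, and it was the strongest unshared WT DAXX peak of all 8 loci. The strongest unshared K/D peak of these genes was place 14244 (33.2%), 10.9 kb before the CXCL2 start, also the strongest unshared K/D DAXX peak of all 8 loci. At CXCL1 the first unshared K/D peak was place 17818 (41.5%), 48.8 kb after the start. Unshared peaks numbered 3 in K/D and 5 in WT at CXCL1, and 2 and 7 at CXCL3 and CXCL2.

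CSF2 encodes GM-CSF, a growth factor of granulocytes and macrophages, and CCL2 encodes a chemokine that draws monocytes through CCR2. CSF2 is at chr5:131409482-131411863, plus strand, and CCL2 at chr17:32582293-32584227, plus strand. CSF2 had 7 DAXX peaks in K/D and 8 in WT, with 5 shared, and no peak in the first 10% of either list. At its promoter the peak was centred 61 bp before the start in K/D (place 25682, 59.9%) and 33 bp before it in WT (place 11313, 18.9%). A second WT peak, 855 bp after the start (place 40977, 68.5%), lay 384 bp from a K/D peak and did not overlap it. CCL2 was the only gene of the 10 with no peak in any of the 6 lists. The stretch around it with no called peak in any list was 1209 kb long, reaching 503 kb to 1 side of the CCL2 start and 705 kb to the other. Of all protein-coding genes, 6.14% had no peak of any list in their window.

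DAXX peaks that stood early in the lists were mostly shared, and most unshared ones stood late. Of the K/D DAXX peaks at the 10 genes, 47 of 62 overlapped a WT peak, 75.8% (exact 95% binomial interval 63.3% to 85.8%), beside 67.4% of the whole K/D list. Of the WT peaks, 47 of 80 overlapped a K/D peak, 58.8% (47.2% to 69.6%), beside 48.4% of the whole WT list. Both intervals, which cover counting error only, hold the value of the whole list. In the first 50% of the list, 32 of 37 K/D peaks were shared (86.5%, as in the whole list, 86.5%) and 42 of 51 WT peaks (82.4%, beside 69.3%). In the last 50%, 15 of 25 K/D peaks were shared (60.0%, beside 48.3%) and 5 of 29 WT peaks (17.2%, beside 27.4%). All 8 K/D and all 10 WT peaks in the first 10% of their lists were shared, where the shares of the whole lists were 97.6% in K/D and 93.7% in WT. The median place of the members' peaks was 26.0% for shared and 62.9% for unshared K/D peaks, and 21.2% for shared and 62.6% for unshared WT peaks. Of the unshared peaks, 3 of 15 in K/D and 5 of 33 in WT lay within 500 bp of a peak of the other line. No share of the whole lists was set beside these counts.

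**Figure D3:**
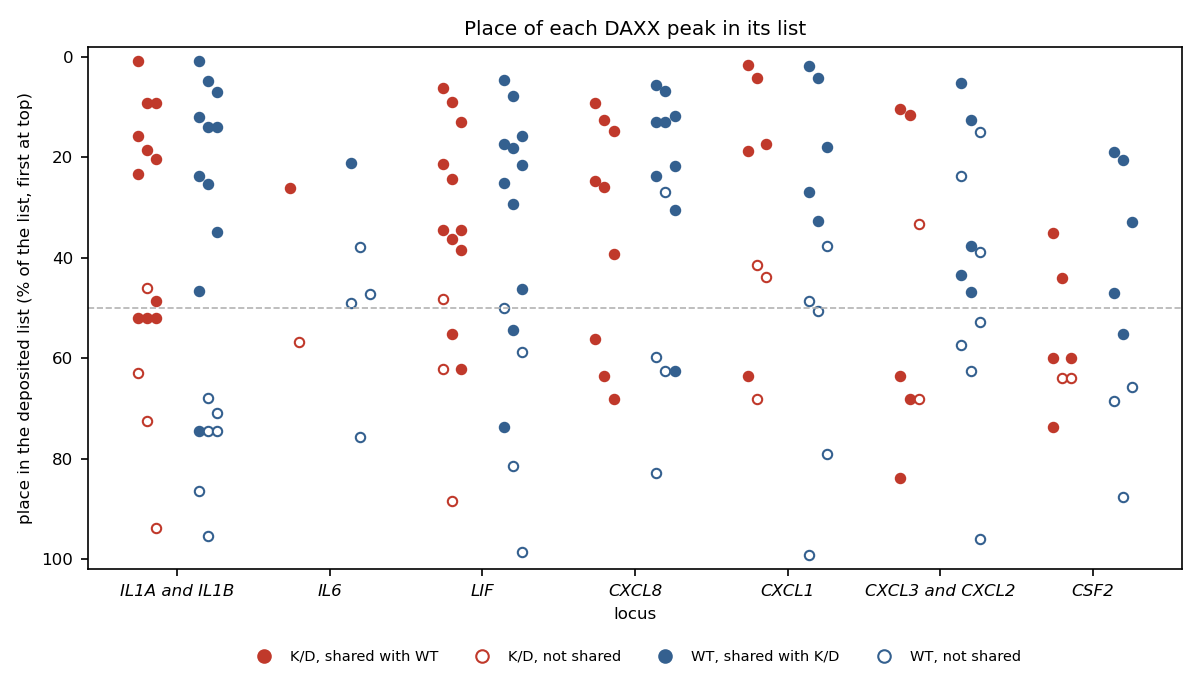
Each point is 1 DAXX peak, by locus on the x axis and by its place in its list in percent on the y axis, with the first place at the top and K/D left of WT. Filled points are shared with the other line and open points are not. The 8 K/D and 10 WT points in the first 10% are all filled, and 24 of the 33 open WT points lie below the dashed line at 50%.

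H3(Lys4) regions covered less of the sequence at these genes in K/D than in WT. There were 70 regions with a summed width of 62.127 kb in K/D and 84 with 104.767 kb in WT. Both lists were almost equally long, but WT regions were also wider over the whole list, with a median width of 644 bp in K/D and 756 bp in WT and 64.4 Mb covered in K/D and 78.1 Mb in WT. Of the 10 genes, 9 had a region in K/D (90% of all genes) and 8 in WT (90.3% of all genes). The median share of the window under a region was 6.07% in K/D, against 3.22% for all genes, and 12.9% in WT, against 4.16%. The share was lower in K/D than in WT at 8 of the 10 genes (66.1% of all genes), higher in K/D at IL6, and 0 in both lines at CCL2. Regions of at least 2 kb numbered 5 of 70 in K/D (6.19% of the whole list) and 16 of 84 in WT (11.6%), and regions of at least 4 kb numbered 0 in K/D (0.502%) and 5 in WT (1.81%). Of the K/D regions 40 of 70 overlapped a WT region, 57.1%, beside 48.2% of the whole K/D list, and of the WT regions 35 of 84 overlapped a K/D region, 41.7%, beside 45.8% of the whole WT list.

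The widest WT regions lay on the promoters of the GRO chemokines and IL1B. At CXCL3 the start was under a region of 1398 bp in K/D (place 3317) and of 5677 bp in WT (place 179). At CXCL2 the nearest K/D region, 1215 bp wide (place 7061), began 165 bp from the start, and in WT a region of 4744 bp covered it (place 467). At CXCL1 the nearest K/D region, 1268 bp wide (place 8436), ended 1561 bp before the start, and in WT a region of 4706 bp covered it (place 280). At IL1B the nearest K/D region, 2718 bp wide (place 1410), lay 1084 bp from the start inside the gene, and in WT a region of 4455 bp covered the start (place 801). These 4 were the first WT regions of all 8 loci in the deposited order, the last of them at 1.11% of the list. In K/D narrower regions stood in their place, 4 overlapping the WT region of CXCL3 and 3 that of CXCL2.

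IL1A and IL6 went the other way. At IL1A a region of 2498 bp covered the start in K/D (place 2930), while in WT 2 regions of 501 bp lay to either side, the nearer 153 bp from the start (place 39887). At IL6 K/D had 7 regions, 3 of them in the gene, and a region of 1123 bp covered the start (place 12971). WT had none in the whole IL6 window, and its nearest region was 57944 bp from the start. A K/D region with no WT region in the window occurred at 2.4% of all protein-coding genes. At CXCL8 the nearest region was 200 bp from the start in K/D (1660 bp wide, place 5650) and 104 bp in WT (759 bp wide, place 19158). At LIF it was 3241 bp away in K/D and 360 bp in WT, and at CSF2 11885 bp away in K/D and 507 bp in WT. CSF2 had 4 regions in K/D and 6 in WT, and none overlapped. Over the 10 genes, the main start was covered in 3 in K/D (11.8% of all genes) and in 4 in WT (21.9%), and a region lay within 1 kb of it in 5 in K/D (51.5%) and in 8 in WT (55.2%).

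DNMT1 peaks were few, as in the whole lists. K/D had 1 and WT had 4, and none was shared, beside 32.3% of the whole K/D list and 8.59% of the whole WT list. When the WT list was shortened in its own order to the length of the K/D list, each line had 1 DNMT1 peak at 1 gene. In K/D 1 of the 10 genes had a DNMT1 peak (4.07% of all genes) and in WT 5 had one (11.4%), IL1A and IL1B through the same peak. The K/D peak lay 18.2 kb before the CXCL2 start in an intron of MTHFD2L (chr4:74983030-74983150, place 279, 46.5%). The WT peaks lay 9.97 kb before the CXCL2 start (chr4:74974818-74974946, place 511, 22.8%), 19.0 kb before the CXCL1 start (chr4:74716058-74716186, place 782, 35.0%), 685 bp before the IL6 start (chr7:22766070-22766198, place 1051, 47.0%) and 19.8 kb before the IL1A start (chr2:113561757-113561885, place 1751, 78.3%). The IL6 peak was the only DNMT1 peak at a promoter of these genes in either line, where 0.368% of all genes in K/D and 0.742% in WT had one. It lay inside the WT DAXX peak centred at -706 (chr7:22766027-22766199). Of the 4 WT peaks 3 overlapped a WT DAXX peak (52.6% of the whole WT DNMT1 list), those at CXCL1, IL6 and IL1A, and the K/D peak did not overlap a K/D DAXX peak (34.1% of the K/D list).

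DAXX peaks at these genes lay on an H3(Lys4) region about as often as in the whole list. In K/D 14 of 62 did, 22.6% (12.9% to 35.0%), beside 28.7%, and in WT 29 of 80, 36.2% (25.8% to 47.8%), beside 37.4%. Of the peaks within 1 kb of a start, 3 of 7 in K/D and 7 of 12 in WT were on a region. The share among all DAXX peaks near protein-coding starts was not computed, so these counts do not set the cytokine promoters apart. At IL6 the K/D promoter peak was on a region and none of the 5 WT peaks was. In WT, 16 of the 29 peaks on a region and 31 of the 51 off a region were shared with K/D, 55.2% (35.7% to 73.6%) and 60.8% (46.1% to 74.2%). The same split was not made for the whole WT list.

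Within 100 bp of the peak centre, AP-1 matches were less frequent than in the lists as a whole and NF-kB matches more frequent. An AP-1 match stood in 17 of 62 K/D windows, 27.4% (16.9% to 40.2%), beside 35.4% of all K/D DAXX peaks and 3.3% of windows 2 kb to either side of them. In WT it stood in 20 of 80, 25% (16% to 35.9%), beside 36.2% and 3.22%. The interval for AP-1 lies below the share of the whole list in WT and holds it in K/D. NF-kB matches stood in 6 of 62 K/D windows, 9.68% (3.63% to 19.9%), beside 2.33% of all K/D peaks and 1.78% of flanks, and in 7 of 80 WT windows, 8.75% (3.59% to 17.2%), beside 2.61% and 1.86%. The intervals for NF-kB lie above the shares of the whole lists, but they treat neighbouring peaks as independent. In WT the NF-kB share was 5% (1.38% to 12.3%) within 50 bp of the centre, beside 1.25% of the whole list, and 7.84% (2.18% to 18.9%) for the peaks in the first 50% of the list, whose interval holds 2.61%. All 6 K/D and 5 of the 7 WT peaks with an NF-kB match were shared between the lines. Of all peaks at the 10 genes, 75.8% in K/D and 58.8% in WT were shared. The share among all peaks of the lists with such a match was not computed. The WT peaks with a match were 3 at LIF, 2 at CXCL8, 1 at IL1B and 1 at CXCL2. Those of K/D lay at LIF, CXCL8, IL1B and CSF2, and the WT peak that overlaps the CSF2 one held no match. A match to the strict C/EBP pattern was in 0 windows in K/D (0.077% of the list) and 0 in WT (0.0837%). STAT (TTCCNGGAA) was in 1 in K/D (0.872% of the list) and 2 in WT (0.88%). Both strands were searched for all 4 motifs, each as a fixed pattern of letters. Sites that depart from the pattern were not counted, so a missing match does not show that a site is absent.

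**Figure D4:**
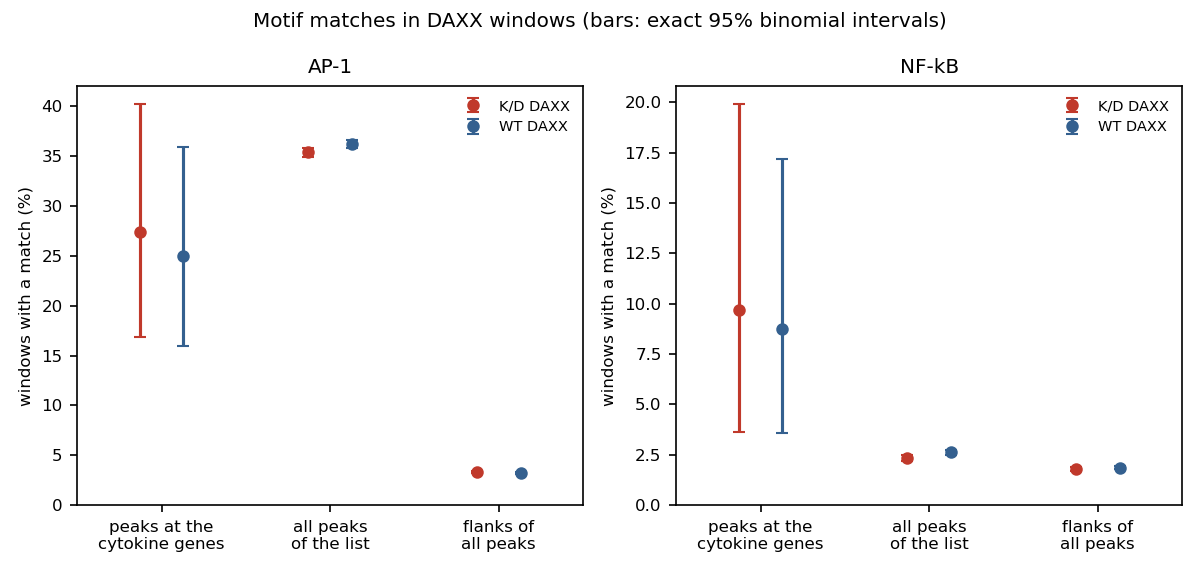
Points give the percent of windows within 100 bp of a DAXX peak centre that hold the AP-1 motif (left) or the NF-kB motif (right), for peaks at the cytokine genes, all peaks of the list and the flanks of all peaks, with K/D left of WT. Bars are exact 95% binomial intervals of the counts. For NF-kB the peaks at the cytokine genes stand at 9.68% in K/D and 8.75% in WT, above 2.33% and 2.61% for the whole lists, and for AP-1 they stand at 27.4% and 25%, below 35.4% and 36.2%.

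The promoters themselves, from 250 bp before to 50 bp after the main start on hg19, held an NF-kB match in IL6, CXCL1, CXCL2 and CXCL3, 4 of the 10 genes, beside 6.53% of all protein-coding promoters. AP-1 was in those of IL1A and CXCL8 (3.56% of all promoters), STAT in that of CCL2 (1.16%), and C/EBP in none of the 10 (0.0202%). A match is a description of the letters and not of a bound site, and a promoter without a match may hold a site that departs from the pattern. The 3 GRO promoters are shown from 105 to 45 bp before the start, 5′ to 3′ on the strand of the gene, because they share the site, which is in capitals and holds overlapping matches on both strands.
CXCL1 promoter, chr4:74735005-74735065, plus strand: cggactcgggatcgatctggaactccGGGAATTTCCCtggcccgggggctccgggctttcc
CXCL2 promoter, chr4:74964957-74965017, minus strand: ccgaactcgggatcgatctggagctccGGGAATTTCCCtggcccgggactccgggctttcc
CXCL3 promoter, chr4:74904451-74904511, minus strand: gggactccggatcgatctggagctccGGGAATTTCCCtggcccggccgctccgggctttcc
Over the whole promoter CXCL1 and CXCL3 had 82.5% identical positions, CXCL2 and CXCL3 73.8% and CXCL1 and CXCL2 71.9%, and the longest identical stretches of these pairs, in the same order, were 25, 37 and 42 bp. Whether this likeness affected which reads could be placed there was not tested. The WT DAXX peak of the CXCL2 promoter covers this site, which opens its printed sequence, and the nearest K/D peak lay 482 bp from it. At CXCL3 the WT promoter peak ended 23 bp from the site and the nearest K/D peak was 6060 bp away. At CXCL1 neither line had a DAXX peak there. In the IL6 promoter the NF-kB match lay between the lists' peaks, 128 bp from the K/D peak and 51 bp from the WT peak.

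The other genes of these pathways were 52 ligands and receptors, 12 of which share part of their window with a member. Of them 41 had a DAXX peak in K/D (78.8%, beside 81.4% of all genes) and 39 in WT (75%, beside 85.3%). Their median was 2.46 peaks per 100 kb in K/D (1.72 for all genes) and 2.70 in WT (2.53 for all genes). Genes that share a window with a member are in these medians, so some of the members' own peaks are counted again. No median was computed without them. The 5 receptors of the gp130 family differed in the place of their first site. Windows differ in length and in number of peaks, and first places here and below were not adjusted for either. The first WT peak of OSMR, the oncostatin M receptor, was place 704 (1.18%), that of LIFR, the LIF receptor, place 730 (1.22%), and that of IL6R place 2493 (4.17%). Those of IL11RA, the interleukin-11 receptor, and IL6ST, which encodes gp130 itself, stood later, at place 8823 (14.8%) and place 14268 (23.9%). LIFR had 11 DAXX peaks in K/D and 13 in WT, with 11 WT peaks shared. Among IL-1 receptors, IL1RL1 came first (place 745), followed by IL1RAP (place 1234) and IL1R1 (place 7593), and among other IL-1 ligands IL1RN, the receptor antagonist, shared its first peak with IL36B and IL36RN (place 5424). CLCF1 (place 992), CNTF (place 1661) and OSM (place 2716, in the LIF window) led the other gp130 ligands. CSF1R, the receptor of M-CSF, held the strongest site of all (place 152), and CSF1 was next in its list (place 583), before CSF3 (place 4677).

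The receptors of the CXC chemokines were poor in DAXX peaks. CXCR1 and CXCR2, through which CXCL8 and the GRO chemokines act, had 0 in both lines, and CXCR3 and CXCR4 had 1 each in both lines, late in the WT list (places 59079 and 38867). Of the other 13 CXC chemokines, 5 have windows that overlap those of the cytokine genes. These, CXCL5, CXCL6, PPBP, PF4 and PF4V1, had between 4 and 6 DAXX peaks in K/D and between 8 and 9 in WT, partly the same peaks as those of the cytokine genes. Elsewhere CXCL9, CXCL10 and CXCL14 had 0 in both lines, CXCL11 had 1 in K/D and 0 in WT, and CXCL12, CXCL13, CXCL16 and CXCL17 had between 2 and 3 in K/D and between 1 and 3 in WT. Among the CC chemokines, the neighbours of CCL2 (CCL7, CCL8, CCL11 and CCL13) had none of any list. CCL20 had 5 in K/D and 7 in WT with the first at place 13373, and CCR2, the CCL2 receptor, had 3 in K/D and 5 in WT with the first at place 4142.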

How the data were processed

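The series has 8 samples, each a group of 1 library by its title. A deposited peak list was used for each of the 6 antibody samples, while both inputs entered only through the authors' peak calls. Per the labels and the study's methods, the authors used CASAVA 1.8.2 for base calls and Bowtie2 2.1.0 for mapping to hg19. Only uniquely mapped reads were retained, and HOMER 4.6 then called peaks library by library at 4.0-fold over input and a Poisson p-value of 0.0001. Header names join an old and a new run of each library. The deposited score column holds the same value for every peak, so the deposited order was used instead. The limits were the same for all libraries, whatever their share of tags in peaks.

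Only peaks of the assembled autosomes and sex chromosomes entered, which left out 113. Genes were those of GENCODE release 44 on hg19. Peaks counted as shared with at least 1 bp in common. Intervals on shares are exact binomial ones at 95% and reflect counting alone. No test was made between K/D and WT. Motif windows reached 100 bp to either side of the peak centre. Peaks were named by a fixed rule: the first 3 WT DAXX peaks of a locus, the first unshared DAXX peak of each line, all promoter DAXX peaks, all DNMT1 peaks and the H3(Lys4) region nearest to each start. Not all peaks that meet this rule are described above. Other pathway genes were named as the first 3 of each list by WT DAXX place. Further gp130 receptors, CXC chemokines and their receptors, and CC chemokines were named beyond this rule. The members and lists were chosen with earlier results of these data known. Overlap and window functions were tested on simulated data. Python 3.11.15, NumPy 2.4.6, SciPy 1.17.1 and Matplotlib 3.10.9 were used.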

Additional observations from a re-analysis of the deposited data

How the results depend on the processing

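Under the alternatives, 82 recomputed values stayed close to those of the report (within 1.5 times for counts, within the binomial interval for shares) and 30 did not. Within 10 kb of the genes there were 21 K/D and 27 WT DAXX peaks, 31 K/D and 32 WT H3(Lys4) regions and 0 K/D and 2 WT DNMT1 peaks, with DNMT1 at 0 genes in K/D and 2 in WT. There 51.9% of WT DAXX peaks lay on H3(Lys4), 11.1% held AP-1, and 56.2% of WT H3(Lys4) regions were shared. Within 100 kb, 2 genes had a K/D DNMT1 peak. In the first 50% of each list there were 37 K/D and 51 WT DAXX peaks and 37 K/D and 49 WT H3(Lys4) regions, 3 genes had a WT DNMT1 peak, 86.5% of K/D DAXX peaks were shared, and 8.11% of K/D and 23.5% of WT DAXX peaks lay on H3(Lys4). With lists of equal length, 1 WT DNMT1 peak at 1 gene was left. With peak centres within 100 bp, 1.61% of K/D and 8.75% of WT DAXX peaks lay on H3(Lys4), and 4.29% of K/D and 3.57% of WT H3(Lys4) regions were shared. With 50% of each peak in common these were 0 and 0 for DAXX on H3(Lys4), since a DAXX peak is too narrow to fill 50% of a region, and 18.6% in K/D and 15.5% in WT for H3(Lys4). Windows around transcript starts moved none of these values, and motif windows of 50 bp lowered the WT NF-kB share to 5%, inside the interval of the main value. For values other than those that hold fewer peaks by construction, the cause was not tested.

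No paired analysis was possible because each group has 1 library. Without replicates, the difference between K/D and WT in any count above cannot be told apart from a difference between libraries, and K/D had fewer of its tags in peaks with all 3 antibodies. The lists give no tag count per peak, so a weaker peak and a lost peak cannot be separated near the calling limit.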
